A study of Mus musculus with 13 samples.

Results

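The MHC class I antigen presentation genes were examined as a set of 10 genes, chosen by symbol from the 47643 genes of the count table. They are the heavy chains *H2-K1* and *H2-D1*, the light chain *B2m*, the peptide loading genes *Tap1*, *Tap2* and *Tapbp*, the immunoproteasome subunits *Psmb8*, *Psmb9* and *Psmb10*, and the regulator *Nlrc5*. All 10 were found and all 10 passed the filter on low counts, as did 17285 genes in all, these included. RNA from isolated brain neurovasculature was sequenced in 13 male CD1 mice aged 8 to 10 weeks. CD1 is an outbred stock. The 4 sham-vehicle mice received phosphate-buffered saline in place of LPS, the 5 LPS-vehicle mice received lipopolysaccharide (LPS) at 3 mg/kg into the peritoneum at 0, 6 and 24 h, and the 4 LPS-CPD-4645 mice received the same LPS course. The last group was also given CPD-4645, an inhibitor of monoacylglycerol lipase, at 10 mg/kg under the skin 30 min after each LPS dose per the labels (another delay is given elsewhere in the study's text), and the other groups were given vehicle. All brains were taken 28 h after the first injection and were not perfused, so the isolated vessels still held blood.

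MHC class I molecules carry peptides from inside the cell to its surface, where CD8 T cells and natural killer cells read them. The peptides are cut by the proteasome, pumped into the endoplasmic reticulum by the TAP transporter and loaded onto a heavy chain that is paired with beta-2-microglobulin. Interferons are known to raise the transcription of these genes, and resting brain tissue is known for low class I expression.

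Counts per library ran from 7813559 to 55133373, and the shallowest came from mouse 3 given LPS and vehicle and from LPS-CPD-4645 mouse 1. The mitochondrial share of a library was 6.47% to 12.7% in sham-vehicle mice, 4.84% to 7.05% in LPS-vehicle mice and 3.97% to 8.17% in LPS-CPD-4645 mice, and its part in the results was not tested. The 8 endothelial marker genes, among them *Cldn5* and *Pecam1*, were all detected and summed to 247 to 651 CPM (counts scaled to a common library size) in a library. Neuronal markers such as *Snap25* summed to 7443 to 10055 CPM and oligodendrocyte markers to 3158 to 6387 CPM, so RNA of brain cells beyond the vessel wall was present in every library. In such bulk RNA, more cells of a type and more RNA per cell cannot be told apart.

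Promoter sequences of 3 members are shown because these genes separated in their response: *H2-K1* and *B2m* rose after LPS and *Psmb10* did not pass the test. They are read 5′ to 3′ on the strand of the gene, from RefSeq on GRCm38.p6, and end just before the first base that GENCODE M21 annotates as an exon of that gene. Capitals mark matches to any of 5 motifs searched on both strands of 300-base windows. The motifs were the X2 core TGACG and the CCAAT box, which are parts of the class I enhancer that NLRC5 acts on, the kappaB site, the interferon-stimulated response element core (GAAA and GAAA with any 2 bases between) and the gamma-activated site.
H2-K1 (chr17:34000348-34000547, minus strand): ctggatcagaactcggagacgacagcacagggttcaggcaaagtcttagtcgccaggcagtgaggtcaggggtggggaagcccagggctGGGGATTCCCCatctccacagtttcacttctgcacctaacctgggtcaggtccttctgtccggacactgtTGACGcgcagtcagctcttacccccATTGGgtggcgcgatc
B2m (chr2:122147487-122147685, plus strand): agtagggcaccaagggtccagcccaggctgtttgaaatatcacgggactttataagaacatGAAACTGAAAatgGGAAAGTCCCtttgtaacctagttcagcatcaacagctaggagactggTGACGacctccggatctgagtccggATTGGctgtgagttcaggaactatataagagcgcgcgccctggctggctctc
Psmb10 (chr8:105938445-105938592, minus strand): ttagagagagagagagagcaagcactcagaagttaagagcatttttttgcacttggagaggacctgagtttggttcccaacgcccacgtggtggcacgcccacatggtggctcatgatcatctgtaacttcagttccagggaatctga
Of the 10 members, 8 had a window in the RefSeq table, and *Tap2* and *Nlrc5* had none.

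*H2-K1* and *H2-D1* shared an arrangement of a kappaB site, a TGACG and an ATTGG (the CCAAT box on the other strand). Counted from the RefSeq start, they lay at -111, -41 and -16 in *H2-K1* and at -171, -101 and -76 in *H2-D1*. In *B2m* the response element core was at -139, the kappaB site at -126, TGACG at -78 and ATTGG at -53. The distance from the first base of TGACG to the first base of ATTGG was 25 bases in all 3 genes, a spacing found in 31 of 32851 windows (0.0944%). That pair was picked after the matches were seen, and the 31 include the windows of these 3 genes. *Psmb8* held the gamma-activated site, as TTCCCAGAA, at -97, *Tap1* held a CCAAT box at -222 and TGACG at -86, and the same bases lie at -8 and -144 of *Psmb9*, read from the other strand, *Tapbp* held ATTGG at -248 and -165, and *Psmb10* held no match. Outside the members, the constitutive proteasome gene *Psmb5* held TGACG at -47, and *Psmb6* held it at -9 and, on the other strand, at -58. Neither gene passed the test after LPS. Across the 32851 windows, TGACG was found in 20.8%, the CCAAT box in 37.4%, the kappaB site in 8.46%, the gamma-activated site in 8.30% and the response element core in 3.44%. A match describes letters and does not show that a factor binds.

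The first question was whether the LPS challenge changed expression of the pathway. After LPS, 9 of the 10 members were higher than in sham-vehicle mice by 2-fold or more with an adjusted p not above 0.05 (edgeR quasi-likelihood test, Benjamini-Hochberg adjustment), against 4.68% of all genes tested. For the same 9 members, every LPS-vehicle library lay above every sham-vehicle library, as it did for 9.68% of all genes. *Psmb10* was the exception. The median log2 fold change was 1.77 over the members and -0.00065 over all genes tested.

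The heavy chains present the peptide. *H2-K1* (chromosome 17, 33996017 to 34000347, minus strand of GRCm38) was measured at 37.6, 38.5, 49.0 and 28.3 CPM in sham-vehicle mice 1 to 4. It reached 196, 336, 228, 132 and 268 CPM in LPS-vehicle mice 1 to 5, and 183, 232, 142 and 121 CPM in LPS-CPD-4645 mice 1 to 4. All 9 LPS-treated mice lay well above the sham range, and the range of the LPS-CPD-4645 mice overlapped that of the LPS-vehicle mice. The log2 fold change after LPS was 2.60 (SE 0.24), or 6.05-fold, with an edgeR adjusted p of 4.97e-07. *H2-D1* (chromosome 17, 35262730 to 35267499, plus strand) was at 115, 115, 121 and 94.1 CPM in sham-vehicle mice. Its values were 372, 704, 366, 274 and 237 CPM after LPS and 307, 399, 317 and 255 CPM with CPD-4645. LPS-vehicle mouse 2 stood far above the other LPS-vehicle mice, and no LPS-treated mouse reached down to the sham range. *H2-D1* rose by 1.81 (SE 0.24) on the log2 scale, with an edgeR adjusted p of 2.21e-05.

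*B2m*, the invariant light chain that every classical class I molecule needs, lies on chromosome 2 (122147686 to 122153083, plus strand). Sham-vehicle mice had 108, 91.8, 124 and 84.0 CPM of *B2m*. The values were 319, 369, 249, 234 and 362 CPM in LPS-vehicle mice and 226, 244, 135 and 172 CPM in LPS-CPD-4645 mice. The 3 groups were ordered, sham lowest and LPS-vehicle highest in the mean, but LPS-CPD-4645 mouse 2 exceeded LPS-vehicle mouse 4. *B2m* rose 3.00-fold after LPS, a log2 fold change of 1.59 (SE 0.18), with an edgeR adjusted p of 3.61e-06.

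*Tap1* and *Tap2* encode the subunits of the peptide transporter, and *Tapbp* encodes tapasin, which bridges it to the heavy chain. *Tap1* (chromosome 17, 34187553 to 34197225, plus strand) was at 8.56, 3.42, 6.41 and 4.99 CPM in sham-vehicle mice. It reached 45.2, 47.7, 45.6, 21.6 and 28.8 CPM after LPS and 52.7, 81.5, 60.5 and 37.5 CPM with CPD-4645. Of the LPS-CPD-4645 mice, 3 of 4 exceeded every LPS-vehicle mouse. *Tap2* (chromosome 17, 34203527 to 34216321, plus strand) was at 11.9, 14.9, 10.2 and 10.1 CPM in sham-vehicle mice. LPS-vehicle mice had 50.3, 36.6, 51.2, 23.5 and 34.2 CPM, and LPS-CPD-4645 mice had 35.8, 46.3, 43.2 and 25.1 CPM. Both LPS groups covered nearly the same range. *Tapbp* (chromosome 17, 33915899 to 33929292, plus strand) was steady in sham-vehicle mice, at 44.6, 48.5, 48.2 and 46.3 CPM. Its values were 102, 135, 87.3, 55.3 and 109 CPM after LPS and 87.1, 114, 95.3 and 77.8 CPM with CPD-4645. LPS-vehicle mouse 4 came close to the sham range and still lay above it. The log2 fold changes after LPS were 2.67 (SE 0.29) for *Tap1*, 1.72 (SE 0.22) for *Tap2* and 1.06 (SE 0.18) for *Tapbp*, with edgeR adjusted p of 2.5e-06, 1.6e-05 and 0.000296. The rise of *Tapbp* fell short of 2-fold without LPS-vehicle mouse 2, at a log2 fold change of 0.91.

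*Psmb8*, *Psmb9* and *Psmb10* encode the catalytic subunits that replace Psmb5, Psmb6 and Psmb7 in the immunoproteasome. *Psmb8* (chromosome 17, 34197721 to 34201454, plus strand) was at 4.68, 4.30, 4.46 and 2.27 CPM in sham-vehicle mice. It was at 20.9, 23.7, 14.1, 10.1 and 25.7 CPM after LPS and at 17.7, 22.2, 18.2 and 10.4 CPM with CPD-4645. Both LPS groups lay above sham without overlap. *Psmb9* (chromosome 17, 34181987 to 34187764, minus strand) was scarce in sham-vehicle mice, at 2.65, 3.94, 2.43 and 1.53 CPM. LPS-vehicle mice had 7.07, 9.69, 10.3, 4.19 and 11.95 CPM and LPS-CPD-4645 mice had 7.83, 5.28, 5.95 and 3.92 CPM. LPS-CPD-4645 mouse 4 fell just within the sham range. *Psmb10* (chromosome 8, 105935735 to 105938444, minus strand) was already at 66.8, 79.3, 67.4 and 62.3 CPM in sham-vehicle mice. Its values were 81.5, 89.1, 107, 67.1 and 85.2 CPM after LPS and 80.6, 94.5, 106 and 89.3 CPM with CPD-4645. LPS-vehicle mouse 4 lay within the sham range, whereas every LPS-CPD-4645 mouse lay above it. After LPS the log2 fold change was 2.26 (SE 0.29) for *Psmb8* and 1.70 (SE 0.31) for *Psmb9*, with edgeR adjusted p of 1.49e-05 and 0.000656. For *Psmb10* it was 0.31 (SE 0.12), with an edgeR adjusted p of 0.064, which did not pass.

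*Nlrc5*, a transactivator of class I genes, lies on chromosome 8 (94434356 to 94527272, plus strand) and was the scarcest member for its length in each group. Sham-vehicle mice had 0.998, 0.282, 1.71 and 0.198 CPM, which rested on 35, 7, 43 and 4 counts. LPS-vehicle mice had 14.0, 15.5, 8.07, 4.16 and 11.1 CPM, and LPS-CPD-4645 mice had 12.1, 13.1, 12.7 and 8.44 CPM. The groups did not overlap with sham. Its log2 fold change after LPS, 3.69 (SE 0.46), was the largest fitted value of the 10 members and corresponded to 12.9-fold, with an edgeR adjusted p of 1.45e-05.

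**Figure D1:**
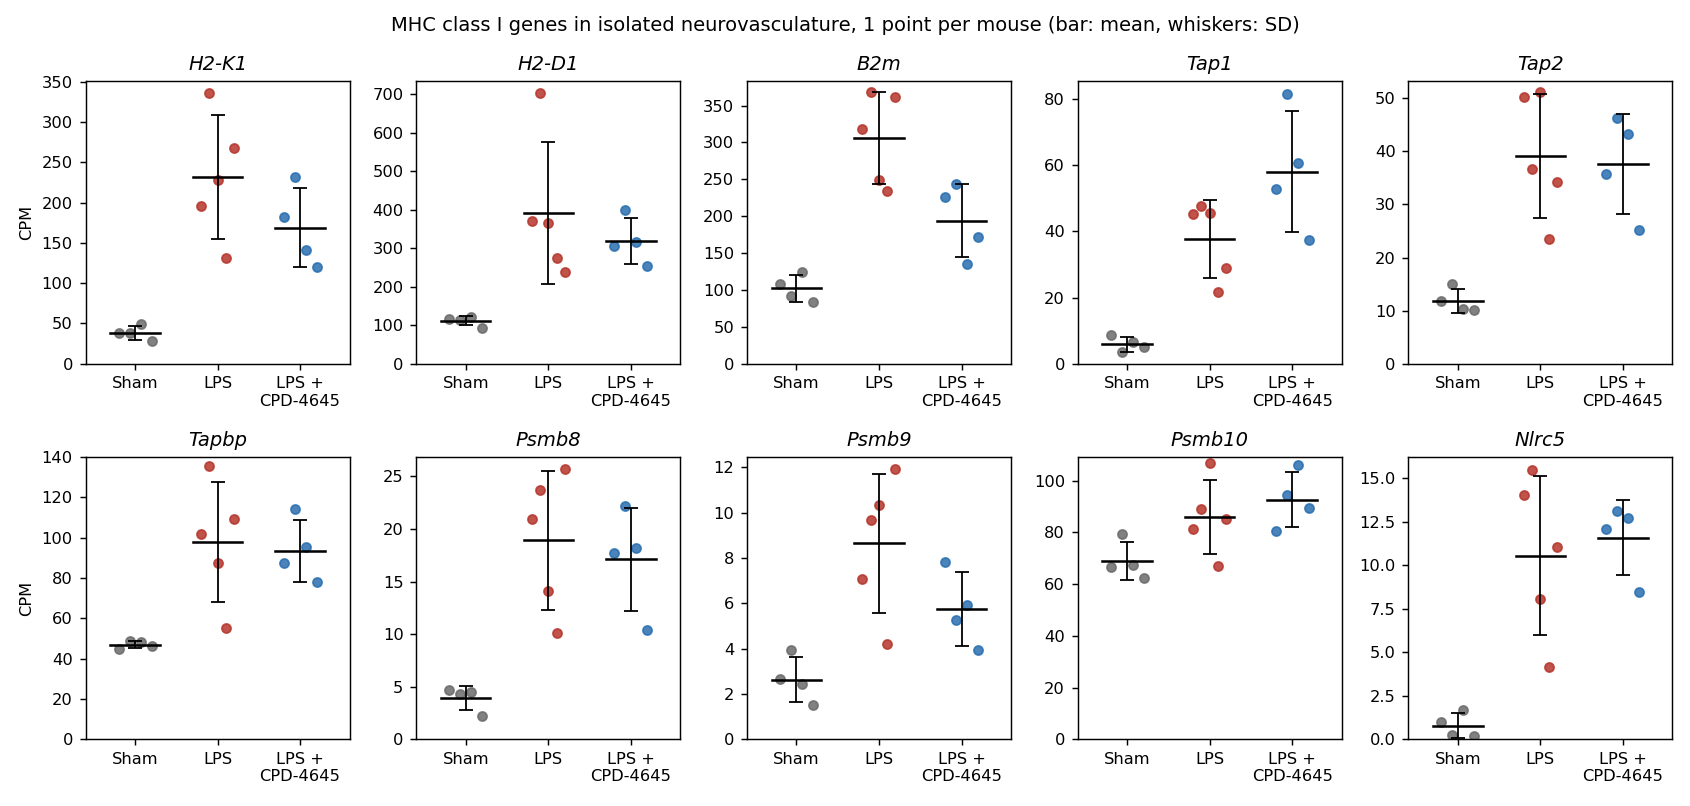
Expression of the 10 genes in CPM, on linear axes that start at 0, with 1 point per mouse, the mean as a bar and the SD as whiskers (4 sham-vehicle, 5 LPS-vehicle and 4 LPS-CPD-4645 mice). The LPS-vehicle points lie above all sham points in every panel except that of Psmb10, where the lowest LPS-vehicle mouse had 67.1 CPM.

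Levels of different genes were compared as CPM per kb of exon, since longer transcripts give more reads. In sham-vehicle mice the order began with *B2m* at 119 ± 20.8 CPM per kb (SD, n = 4), *H2-D1* at 43.2 ± 4.60 and *Psmb10* at 40.4 ± 4.26. *H2-K1* at 13.1 ± 2.87 and *Tapbp* at 12.9 ± 0.51 followed, then *Tap2* at 3.12 ± 0.59. *Psmb8*, *Tap1* and *Psmb9* came next at 1.16 ± 0.33, 1.07 ± 0.40 and 0.721 ± 0.27, before *Nlrc5* at 0.0939 ± 0.083. *H2-D1* and *Psmb10*, *H2-K1* and *Tapbp*, and the neighbours from *Psmb8* to *Psmb9* did not differ beyond their spread. After LPS, *B2m* was at 356 ± 72.8 CPM per kb (SD, n = 5), *H2-D1* at 151 ± 71.6, *H2-K1* at 79.0 ± 26.1 and *Psmb10* at 50.4 ± 8.44. *Tapbp* at 27.0 ± 8.13, *Tap2* at 10.4 ± 3.09, *Tap1* at 6.90 ± 2.16, *Psmb8* at 5.60 ± 1.95, *Psmb9* at 2.36 ± 0.83 and *Nlrc5* at 1.24 ± 0.54 CPM per kb followed. The ranges over LPS-vehicle mice overlapped between all neighbours in this order except *Psmb10* and *Tapbp*, and *Tapbp* and *Tap2*. *H2-K1* was thus below *Psmb10* in sham-vehicle mice and above it in the mean after LPS, where the gap was within the spread. In LPS-CPD-4645 mice *H2-K1* was at 57.6 ± 16.7 and *Psmb10* at 54.3 ± 6.25 CPM per kb (SD, n = 4), a gap within their spread, and *Tap1* at 10.6 ± 3.35 and *Tap2* at 9.95 ± 2.49 changed places, also within their spread.

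Individual mice kept a common rank across the members. LPS-vehicle mouse 4 had the lowest value of its group for 9 of the 10 members, and LPS-vehicle mouse 2 had the highest for 6. Among LPS-CPD-4645 mice, mouse 4 was lowest for 8 members and mouse 2 highest for 8. Sham-vehicle mouse 4 was lowest in its group for 8. These ranks are descriptions, since all members of a library share its depth and scaling.

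Against sham-vehicle mice, the LPS-CPD-4645 mice had 7 members past the threshold, all higher, where 6.11% of all genes tested were. By the adjusted p alone all 10 members were higher, against 19.5% of all genes. For 9 members every LPS-CPD-4645 library lay above every sham-vehicle library, as for 18.7% of all genes, and the exception was *Psmb9*. The log2 fold changes were 3.81 (SE 0.47) for *Nlrc5*, 3.30 (SE 0.30) for *Tap1*, 2.14 (SE 0.24) for *H2-K1* and 2.11 (SE 0.29) for *Psmb8*. *Tap2* at 1.67 (SE 0.23), *H2-D1* at 1.52 (SE 0.24) and *Psmb9* at 1.10 (SE 0.32) also passed. Of these, *Psmb9* had the largest edgeR adjusted p, 0.0111, and lost the 2-fold change without LPS-CPD-4645 mouse 1 (0.94) or without sham-vehicle mouse 4 (0.93). In limma-voom *Psmb9* was at 1.05 with an adjusted p of 0.052, which did not pass. *Tapbp* at 0.997 (SE 0.19) stood just under the 2-fold line and passed it when LPS-CPD-4645 mouse 1 (1.04) or 4 (1.09), or sham-vehicle mouse 2 (1.02), 3 (1.02) or 4 (1.0027), was left out. *Psmb10*, at 0.43 (SE 0.12), was higher by 1.35-fold, with an edgeR adjusted p of 0.00927. *B2m*, at 0.92 (SE 0.18), passed the 2-fold line without LPS-CPD-4645 mouse 3 (1.07) or sham-vehicle mouse 3 (1.04).

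The second question was whether CPD-4645 changed the response of the pathway to LPS. When LPS-CPD-4645 mice were set against LPS-vehicle mice, 0 of the 10 members passed the adjusted p with a 2-fold change in edgeR, against 5.90% of all genes tested. DESeq2 and limma-voom also gave 0, and 2 members had an unadjusted p under 0.05 in edgeR. By the adjusted p alone 1 member, *B2m*, was lower and none was higher, against 16.4% and 14.1% of all genes. The libraries of both groups overlapped for all 10 members. Every LPS-CPD-4645 library lay above every LPS-vehicle library for 11.1% of all genes, and below for 2069 of 17285. The median log2 difference was -0.11 over the members and -0.02 over all genes tested. This comparison and that of LPS with sham use the same 5 LPS-vehicle mice.

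*B2m* was lower with CPD-4645 by a log2 difference of -0.66 (SE 0.17), or 1.58-fold, with an edgeR adjusted p of 0.00695. Its adjusted p stayed at or under 0.0288 in every alternative, and the log2 difference ran from -0.81 to -0.51. *Tap1* differed in the other direction, by 0.63 (SE 0.25), with an adjusted p of 0.0647. *Psmb9* at -0.59 (SE 0.29), *H2-K1* at -0.46 (SE 0.22) and *H2-D1* at -0.29 (SE 0.23) did not pass, with adjusted p of 0.137, 0.127 and 0.349 in edgeR. Over the alternatives the adjusted p ran from 0.0204 to 0.263 for *Tap1*, 0.0378 to 0.337 for *Psmb9* and 0.0277 to 0.347 for *H2-K1*. For these genes the adjusted p thus passed in some alternatives and not in others. For *H2-D1* the log2 difference was 0.03 without LPS-vehicle mouse 2. The remaining members had log2 differences of -0.15 (SE 0.26) for *Psmb8*, -0.07 (SE 0.17) for *Tapbp*, -0.05 (SE 0.20) for *Tap2*, 0.11 (SE 0.11) for *Psmb10* and 0.12 (SE 0.37) for *Nlrc5*. Missing the threshold does not show that these levels were alike.

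**Figure D2:**
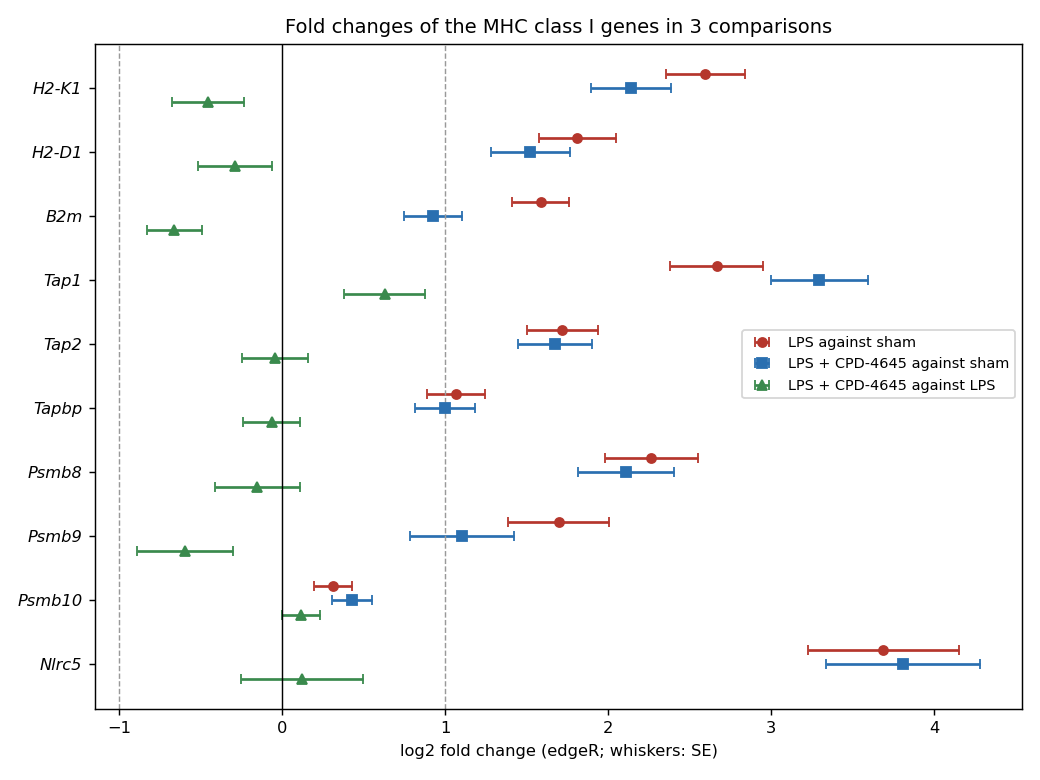
Log2 fold changes of the 10 genes from 1 edgeR fit in 3 comparisons, with the SE as whiskers, a solid line at 0 and dashed lines at 2-fold. Circles and squares (either LPS group against sham) lie to the right of 0 for all genes, and triangles (LPS-CPD-4645 against LPS-vehicle) lie between -0.66 for B2m and 0.63 for Tap1.

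Each immunosubunit was also set against the constitutive subunit it replaces within a library, as a log2 ratio of CPM. Per length, *Psmb8* was far below *Psmb5* in sham-vehicle mice (1.16 and 26.6 CPM per kb) and remained below it after LPS (5.60 and 23.1) and with CPD-4645 (5.07 and 35.2). That order rests on the merged length of all annotated exons, which is 3381 bases for *Psmb8*: without the length, *Psmb8* and *Psmb5* were close after LPS, with 3 of 5 mice higher in *Psmb8*. *Psmb9* lay further below *Psmb6*, at 0.721 and 67.3 CPM per kb in sham-vehicle mice. *Psmb10* was instead close to *Psmb7*, at 40.4 and 34.4 CPM per kb in sham-vehicle mice. This order too rests on the merged exon length: without it, *Psmb10* was below *Psmb7* in those mice, at means of 68.9 and 118 CPM.

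The log2 ratio of *Psmb8* to *Psmb5* was -2.23, -2.88, -2.19 and -3.14 in sham-vehicle mice. It was 0.39, 0.03, -0.55, -0.97 and 0.08 in LPS-vehicle mice and -0.65, -0.52, -1.01 and -1.54 in LPS-CPD-4645 mice. The sham values lay below all others, and the LPS groups overlapped. The mean rose by 2.41 after LPS, or 5.32-fold, with p = 0.00794 in a two-sided exact permutation test, the smallest p that 126 arrangements allow. The ratio of *Psmb9* to *Psmb6* rose by 1.73 after LPS (exact permutation p = 0.0159) and was 0.98 lower on the log2 scale with CPD-4645 than with LPS alone (exact permutation p = 0.0238). The ratio of *Psmb10* to *Psmb7* rose by 0.50 after LPS (exact permutation p = 0.0476) and differed by -0.49 with CPD-4645 (exact permutation p = 0.0397). Between LPS-CPD-4645 and sham-vehicle mice, that last ratio differed by 0.01 (exact permutation p = 0.971), that of *Psmb8* to *Psmb5* by 1.69 (exact permutation p = 0.0286) and that of *Psmb9* to *Psmb6* by 0.75 (exact permutation p = 0.0571). With CPD-4645 against LPS alone, the ratio of *Psmb8* to *Psmb5* differed by -0.73 (exact permutation p = 0.0714). In that comparison *Psmb8*, *Psmb9* and *Psmb10* themselves differed by -0.15, -0.59 and 0.11, and the 3 constitutive subunits by 0.44 to 0.61. With CPD-4645 against sham, *Psmb10* itself was higher by 0.43 and the constitutive subunits by 0.38 to 0.42. Over the 9 ratio tests no Benjamini-Hochberg adjusted p was at or under 0.05. The lowest was 0.0643, and with groups of 4 the smallest raw p was 0.0286.

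**Figure D3:**
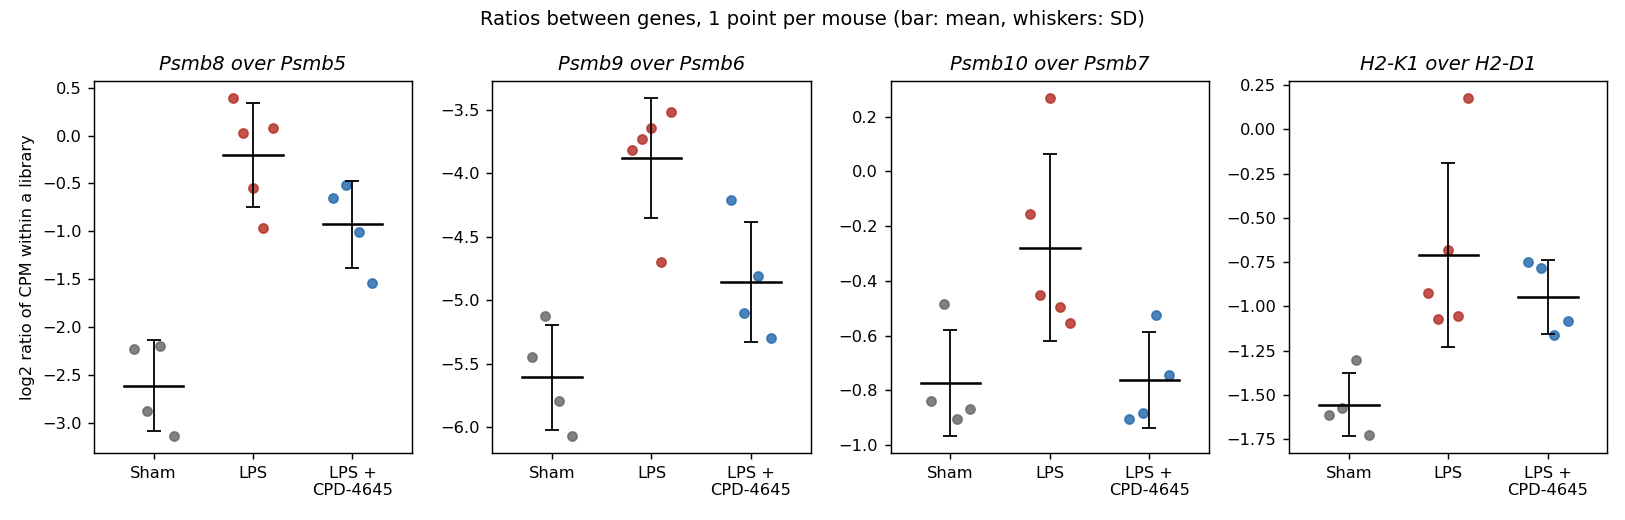
Log2 ratios of CPM within each library, 1 point per mouse with mean and SD, for the 3 immunosubunits over their constitutive counterparts and for H2-K1 over H2-D1. All LPS-vehicle values of Psmb8 over Psmb5 lie above the highest sham value of -2.19, and the highest LPS-vehicle mouse reaches 0.18 for H2-K1 over H2-D1.

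The constitutive subunits themselves passed the adjusted p in the comparison of LPS-CPD-4645 with LPS-vehicle mice and not in that of LPS with sham. *Psmb5* was at 20.6 to 32.1 CPM in sham-vehicle mice, 15.9 to 24.3 in LPS-vehicle mice and 27.8 to 36.8 in LPS-CPD-4645 mice. *Psmb6* ran from 108 to 139, from 100 to 137 and from 146 to 184 CPM in the same order, and *Psmb7* from 111 to 126, from 88.8 to 125 and from 150 to 174 CPM. Every LPS-CPD-4645 library was above every LPS-vehicle library for all 3. With CPD-4645 the log2 differences from LPS alone were 0.61 (SE 0.15), 0.44 (SE 0.10) and 0.59 (SE 0.10), with edgeR adjusted p of 0.00466, 0.00427 and 0.000426. The 11 structural core subunits, which form the barrel around the active sites, were higher too. All 11 passed the adjusted p without reaching 2-fold, where 14.1% of all genes were higher, and all 11 had every LPS-CPD-4645 library above every LPS-vehicle library, where 11.1% of all genes did. They had log2 differences from 0.35 to 0.73, and *Psmb3* and *Psma2* (picked after their values were seen) were the largest. Over the 14 core genes, 0 passed after LPS alone and 0 had an unadjusted p under 0.05 there in edgeR. Against sham-vehicle mice, all 3 constitutive and all 11 structural genes were also higher with CPD-4645 by the adjusted p. None of these reached 2-fold, and 19.5% of all genes were higher in that comparison.

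**Figure D4:**
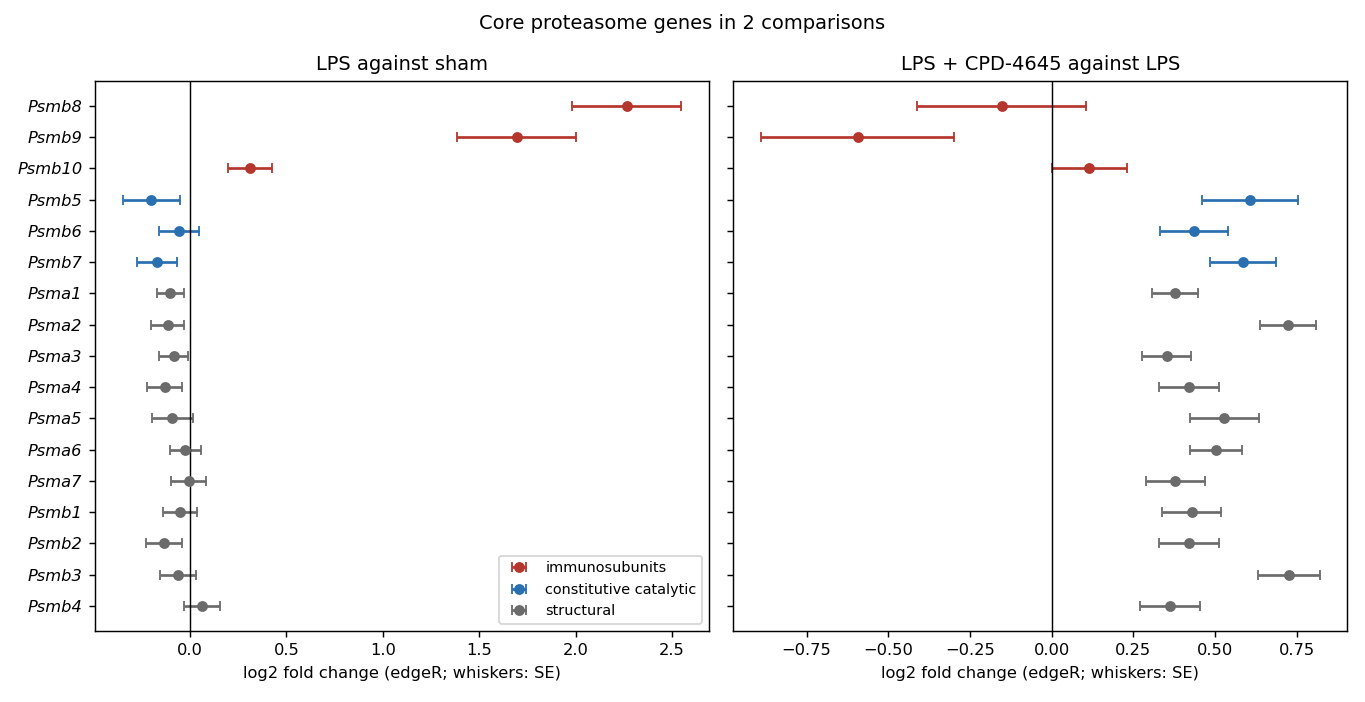
Log2 fold changes (edgeR, SE as whiskers) of the 3 immunosubunits, the 3 constitutive catalytic subunits and the 11 structural core subunits of the proteasome, for LPS against sham (left) and LPS-CPD-4645 against LPS (right, on its own scale). The constitutive and structural genes lie near 0 on the left and between 0.35 and 0.73 on the right.

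Of 9 proteasome activator and assembly genes, 3 were higher and 1 lower after LPS by the adjusted p, where 11.1% and 8.86% of all genes were, and none reached 2-fold. The activator genes *Psme1* and *Psme2* were among the 3, at log2 fold changes of 0.33 (SE 0.09) and 0.56 (SE 0.13). With CPD-4645, 3 of these 9 genes were higher than with LPS alone by the adjusted p (14.1% of all genes), with every library above (11.1% of all genes), and none reached 2-fold. They were *Psme3* at 0.44 (SE 0.08), *Psme4* at 0.42 (SE 0.10) and the assembly chaperone gene *Psmg4* at 0.42 (SE 0.13). Of 9 partners in peptide loading and trimming, 2 were higher and 2 lower after LPS and 0 reached 2-fold in edgeR. *Erap1*, which trims peptides in the endoplasmic reticulum, was at 0.89 (SE 0.24) and the chaperone gene *Canx* at -0.45 (SE 0.10). With CPD-4645, 0 of the 9 loading partners passed the adjusted p against LPS alone in edgeR (16.4% of all genes were lower and 14.1% higher), and 0 had an unadjusted p under 0.05. The 7 genes of this paragraph were named after their values were seen.

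Among 19 nonclassical and other class I-like heavy chains, 17 could be tested and 5 were called higher after LPS, against 4.68% of all genes. By the adjusted p alone 1 was lower, *Fcgrt* (named after its value was seen), at -0.76 (SE 0.20), where 8.86% of all genes were lower. *H2-Q6* was at 0.346 to 1.57 CPM in sham-vehicle mice, 11.0 to 27.6 in LPS-vehicle mice and 6.44 to 11.8 in LPS-CPD-4645 mice. *H2-Q7* ran from 0 to 0.597, from 2.59 to 7.84 and from 1.26 to 2.52 CPM, and *H2-Q4* from 3.51 to 7.21, from 20.9 to 55.8 and from 21.2 to 60.6 CPM. *H2-T23*, which encodes Qa-1, a ligand of inhibitory receptors on natural killer cells, ran from 2.25 to 4.82, from 5.29 to 31.7 and from 6.67 to 15.6 CPM. LPS-vehicle mouse 5 held the highest *H2-T23* value, and the other 4 had 8.07, 14.0, 5.29 and 5.83 CPM. None of these 4 genes had an LPS-treated mouse within the sham range. CD1 alleles and the close likeness of H2 genes may bear on the counts of any of them, which was not tested. Their log2 fold changes after LPS were 4.01 (SE 0.35), 3.83 (SE 0.56), 2.75 (SE 0.30) and 1.95 (SE 0.45), with edgeR adjusted p of 2.05e-07, 7.05e-05, 3.03e-06 and 0.00425. The fifth heavy chain called, *H2-T10* (named after its value was seen), was at 1.23 to 3.10 CPM in sham-vehicle mice and 2.57 to 7.52 CPM in LPS-vehicle mice, which overlapped, with a log2 fold change of 1.05 (SE 0.35, edgeR adjusted p 0.042). Its call was lost without sham-vehicle mouse 1, 3 or 4, LPS-vehicle mouse 2 or 3 or LPS-CPD-4645 mouse 2, at edgeR adjusted p of 0.0524 to 0.15. Without LPS-vehicle mouse 5 the log2 fold change of *H2-T23* was 1.31 (edgeR adjusted p 0.00776). With CPD-4645, *H2-Q7* was the 1 of 17 heavy chains called lower than with LPS alone, close to the 4.19% of all genes called lower, by a log2 difference of -1.33 (SE 0.47, edgeR adjusted p 0.0394). That call was lost without LPS-vehicle mouse 1 or 2 or LPS-CPD-4645 mouse 1, 2 or 4, at edgeR adjusted p of 0.0688 to 0.12. *H2-Q6* differed by -0.86 (SE 0.29, edgeR adjusted p 0.0299) without reaching 2-fold, and its adjusted p was 0.0553 to 0.104 without LPS-vehicle mouse 1 or 2 or LPS-CPD-4645 mouse 3 or 4. *H2-Q4* differed by 0.13 (SE 0.26). The genes sharing most 75-base transcript stretches with *H2-Q6* and *H2-Q7* included other Q genes, and those sharing most with *H2-Q4* did not. Of such stretches, 21.1% for *H2-Q6*, 17.0% for *H2-Q7* and 20.7% for *H2-Q4* occur in other genes, so their counts are uncertain. For *H2-K1* and *H2-D1* the shares were 3.10% and 5.56%.

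Regulators of class I transcription were led by interferon regulatory factors. Of 18 tested, 6 were called higher after LPS, against 4.68% of all genes. *Irf7* ran from 0.889 to 3.79 CPM in sham-vehicle mice, from 14.5 to 70.0 after LPS and from 20.9 to 31.1 with CPD-4645, and *Irf1* from 8.05 to 9.45, from 17.5 to 53.3 and from 28.3 to 60.4 CPM. *Irf9*, part of the complex that interferon receptors activate, was also separate from sham, at 11.3 to 15.1, 33.1 to 73.1 and 33.2 to 42.7 CPM. The log2 fold changes after LPS were 3.82 (SE 0.43) for *Irf7*, 2.05 (SE 0.31) for *Irf1* and 1.88 (SE 0.19) for *Irf9*, with edgeR adjusted p up to 0.000112. With CPD-4645, 2 regulators were called lower than with LPS alone, against 4.19% of all genes. *Irf3* went from 23.8 to 33.9 CPM after LPS to 10.2 to 14.0 CPM with CPD-4645, a log2 difference of -1.13 (SE 0.15). *Nfya*, which encodes a subunit of the factor that binds the CCAAT box, went from 22.6 to 27.7 CPM to 8.08 to 13.3 CPM, a difference of -1.22 (SE 0.14). Both lay below the sham range as well in LPS-CPD-4645 mice, and their edgeR adjusted p were 3.14e-05 and 1.21e-05. By the adjusted p alone 4 regulators were lower and 2 higher, where 16.4% and 14.1% of all genes were. *Nfyb*, another subunit gene of that factor (named after its value was seen), ran from 49.8 to 58.4 CPM after LPS and from 65.0 to 75.8 CPM with CPD-4645.

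The interferon genes were at or near 0. *Ifng* had 0 counts in all sham-vehicle and LPS-vehicle libraries and 3 counts in LPS-CPD-4645 mouse 1. *Ifnb1* had 1 count in each of 2 libraries. A count of 0 allows up to 3 counts, which is 0.0538 to 0.378 CPM in these libraries, so lower levels were not detectable. Of 8 tested genes of interferon ligands and receptors, *Socs1*, an inhibitor of the receptors' signal, was the 1 called higher after LPS (4.68% of all genes), at 1.46 (SE 0.46), although its groups overlapped. By the adjusted p alone 3 of the 8 were higher (11.1% of all genes). The call on *Socs1* was lost without sham-vehicle mouse 1 or 4 or LPS-vehicle mouse 1, 2 or 3, at edgeR adjusted p of 0.0518 to 0.0963. Of 11 genes of T and natural killer cells, 1 could be tested, *Gzmb*, at 4.28 (SE 1.14) after LPS from 0 to 0.159 CPM in sham-vehicle mice and 0.0274 to 1.64 CPM in LPS-vehicle mice, which overlapped. In the sham group *Gzmb* had counts in mouse 3 alone, and without that mouse the fitted value was 7.54, which depends on the prior count. The T cell genes rested on few counts and did not move together. *Cd3e* had 5, 6, 4 and 8 counts in sham-vehicle mice, 7 in LPS-vehicle mouse 2 and 0 in all other libraries, whereas *Cd3d* had 6, 1, 0 and 5 counts in LPS-CPD-4645 mice and at most 4 in any other library. *Cd8a* had at most 4 counts in a library.

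The 8 genes whose log2 CPM over the 13 libraries was most like the mean of the members were *H2-Q4*, *Isg15*, *Bst2*, *Tsc22d4*, *Ifitm3*, *Sdc4*, *Clec4a2* and *Oplah*. Pearson's r with that mean ran from 0.971 for *Oplah* to 0.985 for *H2-Q4*. The libraries form 3 groups, and the step between sham and LPS mice enters every such r. *Ifitm3* had a mean of 20.7 ± 6.38 CPM (SD, n = 4) in sham-vehicle mice, 145 ± 37.9 (n = 5) after LPS and 128 ± 20.6 (n = 4) with CPD-4645. Within the set, r of a member with the mean of the other 9 was lowest for *Psmb10* at 0.739 and highest for *H2-K1* at 0.980.

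Cell type markers moved beside these genes, and their part in the results was not tested. Their counts by the adjusted p after LPS stand against 11.1% of all genes higher and 8.86% lower. The 9 neutrophil markers summed to 1.23 to 5.16 CPM in sham-vehicle mice, 58.4 to 259 in LPS-vehicle mice and 7.04 to 26.5 in LPS-CPD-4645 mice. Of the 6 neutrophil markers tested, 6 were higher after LPS and 6 were lower with CPD-4645 than with LPS alone, by the edgeR adjusted p. LPS-vehicle mouse 2 had the highest neutrophil sum and the highest value of 6 members, and the other 4 LPS-vehicle mice had sums of 58.4 to 102 CPM. Monocyte and macrophage markers summed to 34.0 to 54.6, 44.1 to 92.3 and 24.6 to 47.6 CPM, with 5 of 7 tested higher after LPS and 3 lower with CPD-4645 than with LPS alone. Endothelial markers summed to 247 to 418, 313 to 651 and 338 to 457 CPM, with 4 of 8 higher and 1 lower after LPS, and 3 of 8 lower with CPD-4645 than with LPS alone. Astrocyte markers summed to 1125 to 1459, 1603 to 2053 and 1486 to 1978 CPM, with 3 of 6 higher after LPS. Microglial markers summed to 182 to 240, 115 to 218 and 120 to 145 CPM, with 4 of 7 lower after LPS. Of the tested markers, 4 of 4 of erythrocytes, 4 of 8 of pericytes and smooth muscle, 3 of 5 of fibroblasts, 4 of 6 of oligodendrocytes and 1 of 5 of choroid plexus were lower after LPS, and 1 each of the pericyte and smooth muscle, fibroblast and oligodendrocyte markers was higher. With CPD-4645 against LPS alone, 2 oligodendrocyte markers and 1 each of the neuron, microglia and choroid plexus markers were higher, and 1 each of the oligodendrocyte, microglia and pericyte and smooth muscle markers was lower, where 14.1% and 16.4% of all genes were. The 10 lymphocyte markers summed to 2.63 to 4.99 CPM in all libraries.

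Some members overlap other annotated genes, and which strand was counted is not given in the sources used here. *Tap1* and *Psmb9* share 212 exonic bases on opposite strands. *Tapbp* shares 904 with *Gm19412* on the opposite strand and 149 with *Zbtb22* on the same strand. *Tap2* shares 533 with *Gm15821* and 165 with *Gm20496*, and *Psmb8* shares 498 with *Gm20496*, all on opposite strands, and *Nlrc5* shares 78 with a lincRNA on the other strand. *B2m* and *Psmb10* share no exonic base with another gene.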

How the data were processed

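The authors aligned stranded polyA reads to mm10 (GRCm38) with STAR 2.5.2a and the GENCODE M9 basic annotation, and deposited raw counts per gene for 13 libraries, each from 1 mouse. Which strand column of the aligner's output was taken is not given in the sources used here. CD1 mice may carry H2 alleles that differ from the reference strain, which can bias the counts of H2 genes.

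Symbols came from GENCODE M21 for 47224 of 47643 IDs. Genes were kept with filterByExpr (minimum count 10, minimum total 15) and scaled by TMM (factors 0.908 to 1.08). One edgeR 4.0.16 quasi-likelihood fit over the 3 groups (R 4.3.3, common dispersion 0.0334) gave log2 fold changes, with Benjamini-Hochberg adjustment over the 17285 genes. The SE was the log2 fold change divided by the square root of F. A gene was called at an adjusted p of at most 0.05 and at least 2-fold. CPM were taken on effective library sizes (total times TMM factor), with a prior count of 2 before log2. Exact permutation tests on ratios were two-sided. DESeq2 1.42.0, limma 3.58.1 voom, other filters, a replicate block and leaving out each mouse were alternatives. The fit was tested on simulated data: for LPS against sham, 76 of 100 genes changed 2-fold and 93 of 100 changed 4-fold were recovered, with 7 false calls over 17285 genes. The limit for a count of 0 was 3 counts and covers counting error only.

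Members and gene lists were chosen with earlier results of these data known. Named were all members, from each list up to 4 called genes of largest change per comparison, *Psmb5*, *Psmb6*, *Psmb7*, *Ifng* and *Ifnb1*, and the 8 genes most like the members. Other genes were named outside this rule, after their values were seen, and are marked so or are marker genes. Values of some listed genes are not reported here.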

Additional observations from a re-analysis of the deposited data

Results flagged for a closer look

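In groups of 4 or 5 mice, 4 of 42 sets of values had 1 mouse far from the others by Dixon's test at the 95% level, which chance does in about 1 in 20 groups. *H2-D1* was at 704 CPM in LPS-vehicle mouse 2, where the group's median was 366 CPM. *Psmb8* was at 2.27 CPM in sham-vehicle mouse 4, against a median of 4.38 CPM. The log2 ratio of *Psmb9* to *Psmb6* was -4.70 in LPS-vehicle mouse 4, against a median of -3.73. The log2 ratio of *Psmb10* to *Psmb7* was -0.49 in sham-vehicle mouse 2, against a median of -0.85.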

How the results depend on the processing

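Over 21 alternatives, 8 to 9 members were called higher after LPS, 0 in LPS-CPD-4645 against LPS-vehicle mice in edgeR, DESeq2 and limma-voom alike (1 to 4 at an unadjusted p under 0.05), and 6 to 9 in LPS-CPD-4645 against sham-vehicle mice. With the replicate number as a block, 8, 0 and 7 members were called, and *Tapbp* was at 0.96 after LPS. Same-numbered mice correlated at -0.0346 to 0.114. Without values for differently numbered mice beside these, whether the numbers pair the mice cannot be told. For LPS-CPD-4645 against LPS-vehicle mice the sign of some values that were not called turned. With the block *Tapbp* was at 0.0138 and *Psmb8* at 0.0021. *Tap2* was at 0.0427 in limma-voom and 0.0818 without the shallowest 2 libraries, an alternative chosen after seeing the data. Leaving out 1 mouse gave -0.43 to 0.0347 for *H2-D1*, -0.19 to 0.12 for *Tap2*, -0.22 to 0.0832 for *Tapbp*, -0.32 to 0.0396 for *Psmb8* and -0.088 to 0.31 for *Nlrc5*. The ratio of *Psmb10* to *Psmb7* between LPS-CPD-4645 and sham-vehicle mice ran from -0.069 to 0.107. The cause was not tested. *Psmb9* in LPS-CPD-4645 against sham-vehicle mice was at 1.05 in limma-voom, with an adjusted p of 0.052. At a mean count of at least 50, 632 genes were called for the effect of CPD-4645 after LPS, against 1019. Groups of 4 or 5 mice and few counts of *Nlrc5* in sham-vehicle mice limit precision.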

Other observations

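The balance of the heavy chains differed between mice. The ratio of *H2-K1* CPM to *H2-D1* CPM was 0.327, 0.336, 0.405 and 0.302 in sham-vehicle mice 1 to 4. It was 0.527, 0.477, 0.623, 0.481 and 1.13 in LPS-vehicle mice 1 to 5 and 0.595, 0.581, 0.447 and 0.473 in LPS-CPD-4645 mice 1 to 4. Every LPS-treated mouse lay above every sham-vehicle mouse, and LPS-vehicle mouse 5 had the highest value. Dixon's test, run on the log2 ratios and not on the ratios printed here, did not set that mouse apart from its group. The groups were not compared by a test. CD1 alleles of H2 genes may bear on this ratio, which was not tested.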
